A study of Mus musculus with 5 samples.

Results

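The intergenic distal sites at which both Gfi1 and Lsd1 were called in both MG tumors numbered 1638. They were chosen on the peak calls themselves. A Gfi1 peak of replicate 1 was kept when it overlapped a peak in each of the other 3 lists by 1 bp or more, when its nearest edge was 5 kb or more from every transcription start site (TSS) of GENCODE M21, and when its midpoint lay in no annotated gene. Of 36836 Gfi1 peaks in replicate 1, 18906 were found in all 4 lists, and 8.66% of these 18906 met both conditions on position (95% exact binomial interval 8.27% to 9.07%, counting error only). The other peaks found in all 4 lists were 12690 within 1 kb of a TSS, 2323 between 1 and 5 kb away, and 2255 distal peaks with their midpoint in a gene. A further 3425 intergenic distal Gfi1 peaks of replicate 1 were missing from 1 or more lists. Presence in 4 lists is therefore what selected these sites and not a finding about them.

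The study asked which regions of the genome Gfi1 and its cofactor Lsd1 occupy in MG medulloblastoma. MG tumors were made from Prominin1+, lineage-negative stem cells of the cerebellum of C57BL/6 pups 5 to 7 days old, which received Gfi1 and a stabilized mutant of Myc by retrovirus and were transplanted into the cerebellum of immunodeficient NSG mice, and tumor cells were taken once these adult hosts bore tumors. Tumor 39 is replicate 1 and tumor 41 is replicate 2, and both tumors carry both transgenes, so Gfi1 is supplied by a virus in each of the 4 ChIP libraries. Chromatin of each tumor was immunoprecipitated with 1 antibody to Gfi1 and another to Lsd1, and peaks were called library by library against an input. The labels give as input pooled chromatin of MGB tumors, labelled Myc/Gfi1b, and this sample was not analysed here. The 4 lists held from 25078 to 36836 peaks. The study gives a number of mapped reads for each library, but the lists carry no read counts, so the reads behind a single peak are not known. No tumor without Gfi1 and no normal cells were analysed here, and peaks cannot be set against a background of that kind.

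Gfi1 is a zinc finger repressor that binds DNA at sites with a core AATC and recruits Lsd1, a histone demethylase that removes methyl groups from lysine 4 of histone H3, together with the scaffold CoREST. Sites away from promoters where such complexes bind are often enhancers, which carry this methyl mark and act on genes at a distance. The term intergenic depends on the annotation. Transfer RNA (tRNA) genes, which RNA polymerase III transcribes from promoter elements inside the gene, are mostly absent from the GENCODE gene set and are present in that of RefSeq.

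The 3 highest-scoring sites were groups of tRNA genes. Sites were ranked by the percentile of the authors' score within each list, averaged over the 4 libraries, with 100 as the highest. These 3 of the 1638 sites each held between 3 and 5 tRNA genes of RefSeq, and 40 of the 1638 sites (2.44%) held 1 or more. Among all 18906 peaks in the 4 lists the share with a tRNA gene was 0.640%, and among the 2255 distal sites in genes it was 0.0887%, which is 2 sites. Of the 10 highest sites 3 held a tRNA gene, and of the 100 highest 14 did. Sequences of some of the genes in the 3 highest sites are shown. Each is printed in the direction of the gene with 20 bases on either side, from the RefSeq copy of GRCm38, the build also called mm10. Capitals mark the B box, the promoter element inside the gene.
n-TKctt16, lysine, minus strand, chr3:96499492-96499604: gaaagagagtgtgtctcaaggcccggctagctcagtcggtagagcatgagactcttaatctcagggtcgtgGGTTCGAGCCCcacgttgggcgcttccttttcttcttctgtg
n-THgtg4, histidine, minus strand, chr2:122375474-122375585: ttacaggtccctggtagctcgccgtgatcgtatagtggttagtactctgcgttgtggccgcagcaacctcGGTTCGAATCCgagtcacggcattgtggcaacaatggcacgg
n-THgtg3, histidine, minus strand, chr2:122377343-122377454: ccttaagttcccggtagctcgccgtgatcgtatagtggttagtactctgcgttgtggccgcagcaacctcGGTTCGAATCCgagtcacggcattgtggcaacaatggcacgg
n-THgtg5, histidine, plus strand, chr2:122377948-122378059: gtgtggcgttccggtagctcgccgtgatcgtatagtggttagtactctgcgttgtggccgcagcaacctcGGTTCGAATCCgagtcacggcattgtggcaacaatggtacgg
n-TFgaa7, phenylalanine, minus strand, chr5:125406035-125406147: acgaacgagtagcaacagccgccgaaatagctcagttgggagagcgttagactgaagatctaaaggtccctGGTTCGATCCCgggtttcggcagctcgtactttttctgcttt
The lysine gene lies in the highest site, chr3:96498502-96503400, which holds 4 tRNA genes. The 3 histidine genes lie in the second site, chr2:122374786-122379069, and are identical from first to last base. The phenylalanine gene lies in the third site, chr5:125402368-125410650, with 2 alanine and 2 aspartate genes.

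In tumor 39 the highest site stood at percentile 98.6 of the Gfi1 list and 99.7 of the Lsd1 list, and in tumor 41 at 99.9 and 99.2. Its nearest GENCODE TSS belongs to the small nuclear RNA gene Gm22614 at 9773 bp. The second site stood at 98.6 and 99.5 in tumor 39 and at 99.8 and 99.2 in tumor 41, in the same order of factors, with the TSS of Shf at 5624 bp. The third stood at 97.4 and 99.7 in tumor 39 and at 99.2 and 99.9 in tumor 41, with the TSS of Dhx37 at 5247 bp. The 3 sites were ranked by the mean of these same 4 percentiles, so their high place in each list follows from the ranking. At this height the order of sites has little meaning, because 805 peaks of Gfi1 replicate 1, 113 of Lsd1 replicate 1 and 419 of Lsd1 replicate 2 share the score 3100, and tied peaks share a percentile.

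The 40 sites with a tRNA gene had median percentiles of 74.5 (Gfi1) and 81.6 (Lsd1) in tumor 39, and of 76.8 (Gfi1) and 77.4 (Lsd1) in tumor 41. For the 1598 other sites the medians were 54.0, 59.8, 46.3 and 57.1 in the same order. The tRNA sites were thus higher in each library, with the widest gap for Gfi1 in tumor 41. They held 70 tRNA genes of 18 amino acid classes, led by leucine with 10 genes. A match to the B box was found in 46 of these 70 genes (65.7%) and in 235 of all 403 annotated tRNA genes (58.3%). Over all 403 genes, 231 lay under a peak of Gfi1 in tumor 39, 227 in tumor 41, 239 under a peak of Lsd1 in tumor 39 and 231 in tumor 41. In all, 195 tRNA genes (48.4%) lay under a peak of every list.

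Several tRNA sites lay together. Chromosome 13, where the mouse keeps a large group of tRNA genes beside histone genes, held 13 of the 40. The site at chr13:21167936-21173746 near Trim27 spanned 6 tRNA genes, for lysine, methionine, glutamine and 3 for leucine, and stood at 89.0 and 99.2 in tumor 39 and at 99.3 and 96.6 in tumor 41 for Gfi1 and Lsd1. The lowest tRNA site, chr13:21936709-21937705 near Zfp184 with 1 serine gene, stood at 41.2 and 53.0 in tumor 39 and at 0.297 and 32.5 in tumor 41. The mean percentile of the sites with a tRNA gene ran from 31.7 to 99.4, and that of all sites from 7.98 to 99.4. Of the 70 genes, 52 are identical in sequence to another annotated tRNA gene, so reads inside such a gene could be placed at more than 1 copy. No site with a tRNA gene was as a whole a near-identical copy of another place in the genome, when 50% of the length and 95% identity were required. The tRNA sites were also wider, with a median of 2080 bp against 1498 bp, and more often CpG-rich, and the part of width and base composition in their score was not tested.

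The 7 other sites among the 10 highest held no tRNA gene, and 6 of them are described here. The site at chr8:126664796-126669167 lies 70810 bp from Irf2bp2, a transcriptional corepressor gene, and stood at 95.01 and 99.7 in tumor 39 and at 99.9 and 99.2 in tumor 41 for Gfi1 and Lsd1. It covers the VISTA element mm1295, an enhancer with activity in the embryonic forebrain. The site at chr6:136465121-136471649, whose nearest protein-coding gene is Atf7ip at 34518 bp, stood at 94.7 and 99.7 in tumor 39 and at 98.8 and 99.2 in tumor 41, and it is the 1 site of the 10 with the GFI1 letters in its central window. The site at chr1:86486317-86489026, whose nearest protein-coding gene is Ptma, the prothymosin gene, at 37700 bp, stood at 97.0 and 99.2 in tumor 39 and at 97.4 and 98.2 in tumor 41. The others were nearest to Tex44 at 11152 bp, to the noncoding gene G930009F23Rik at 12776 bp and to the noncoding gene Gm44734 at 6749 bp, with mean percentiles of 98.9, 98.5 and 98.4. For 4 of the 10 sites a RefSeq noncoding transcript starts within 1 kb, which GENCODE M21 does not place there.

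The central 200 bp of 3 of these sites, and of 1 site each near Ccne1 and Id3, are shown on the plus strand of GRCm38, each named by its nearest protein-coding gene. They cover the 3 kinds of sequence met below, CpG-rich windows, a window inside a known enhancer and windows with the GFI1 letters AATCNNNGC on either strand. Capitals mark CpG dinucleotides in the first 2 windows, the E-box letters CANNTG in the third and the GFI1 letters in the last 2.
CpG-rich, Ptma, chr1:86487671-86487870: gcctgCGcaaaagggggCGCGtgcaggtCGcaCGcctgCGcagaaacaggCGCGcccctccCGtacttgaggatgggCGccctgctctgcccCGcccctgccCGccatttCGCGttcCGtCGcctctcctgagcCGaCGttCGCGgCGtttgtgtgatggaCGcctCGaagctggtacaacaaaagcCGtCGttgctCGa
CpG-rich, Ccne1, chr7:38085254-38085453: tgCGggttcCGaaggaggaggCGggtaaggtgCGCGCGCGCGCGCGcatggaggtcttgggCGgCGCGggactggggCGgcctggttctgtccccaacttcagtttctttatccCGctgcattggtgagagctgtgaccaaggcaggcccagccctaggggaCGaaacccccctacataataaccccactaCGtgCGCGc
Enhancer mm1295, Irf2bp2, chr8:126666850-126667049: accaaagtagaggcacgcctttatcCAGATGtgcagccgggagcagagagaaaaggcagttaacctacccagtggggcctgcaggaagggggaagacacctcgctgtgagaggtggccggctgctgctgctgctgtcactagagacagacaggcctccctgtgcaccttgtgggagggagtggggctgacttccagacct
GFI1 letters, Atf7ip, chr6:136468560-136468759: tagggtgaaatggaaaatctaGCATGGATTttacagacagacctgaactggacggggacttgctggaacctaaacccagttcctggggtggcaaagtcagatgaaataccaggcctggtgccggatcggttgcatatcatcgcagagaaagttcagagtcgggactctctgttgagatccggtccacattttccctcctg
GFI1 letters, Id3, chr4:136152130-136152329: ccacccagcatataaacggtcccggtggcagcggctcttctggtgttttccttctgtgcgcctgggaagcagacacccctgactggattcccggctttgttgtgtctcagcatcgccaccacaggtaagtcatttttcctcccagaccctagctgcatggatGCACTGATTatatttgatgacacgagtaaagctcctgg
The 2 CpG-rich windows hold 26 and 19 CpG dinucleotides.

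The 1638 sites as a whole had middling scores. In tumor 39 the median percentile of the sites was 54.5 in the Gfi1 list and 60.1 in the Lsd1 list, and in tumor 41 it was 46.7 and 57.3. The mean over the 4 libraries was 54.6 ± 5.79 (SD, n = 4 libraries). Sites in genes gave much the same medians, 51.6, 59.0, 45.2 and 58.0 in that order, whereas sites at a TSS gave 81.9, 77.7, 72.5 and 80.7. By design 20% of each list lies in its upper 20%. In tumor 39 the share of the sites there was 6.96% by Gfi1 and 20.3% by Lsd1, and in tumor 41 it was 8.55% and 11.7%. In every list at once, 60 of the 1638 sites (3.66%) were in the upper 20%, against 20.1% of all 18906 peaks found in the 4 lists and 1.91% of the 2255 sites in genes. At the other end, 255 sites (15.6%) fell below the median of every list. These values are part of the calls that chose the sites, and they are given as a description.

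**Figure D1:**
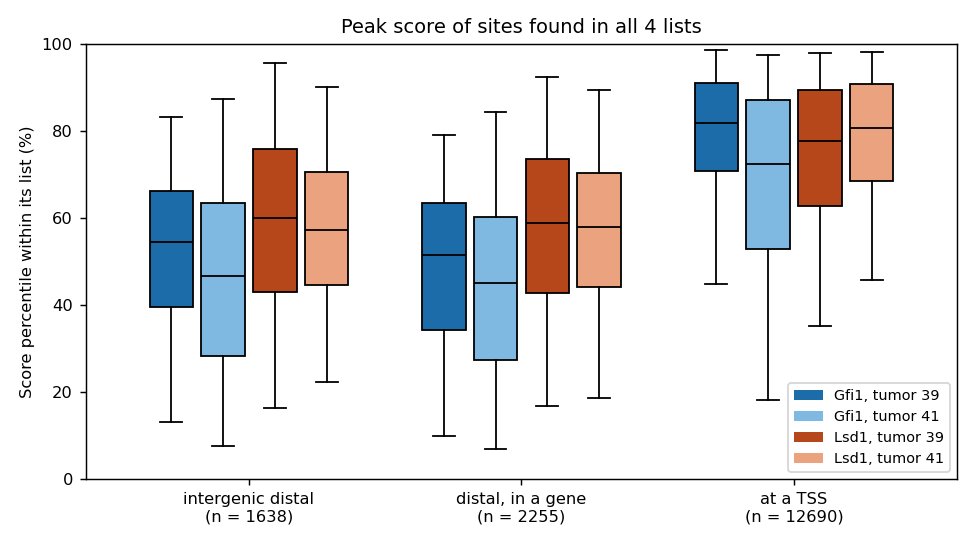
Score percentile within its list (vertical axis, percent) of the peaks found in all 4 lists, by place in the genome and by library. Boxes give the median and quartiles over sites and whiskers the 5th and 95th percentiles. The intergenic distal sites and the distal sites in genes have like boxes, and the sites at a TSS lie above both in each library.

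The score of a site varied between the tumors more for Gfi1 than for Lsd1. The median absolute difference between tumors was 13.1 percentile points for Gfi1 and 9.15 for Lsd1, and 70 sites by Gfi1 and 14 by Lsd1 differed by more than 50 points. Across the 1638 sites, which share libraries and input, Spearman's rho between the tumors was 0.540 (Gfi1) and 0.734 (Lsd1). Between the factors it was 0.495 within tumor 39 and 0.647 within tumor 41. Of the 70 sites that differed most for Gfi1, 45 were higher in tumor 39 and 25 in tumor 41. In 16 of the 70 the tumor 41 peak spanned 2 or more peaks of tumor 39, so that several Gfi1 peaks of tumor 39 were set against the same peak. The Gfi1 list of tumor 39 gave the site's own peak, while each other list gave its highest overlapping peak. In tumors 39 and 41 the Gfi1 lists held 36836 and 25078 peaks and the Lsd1 lists 30367 and 33213. The part of both in the contrast between the factors was not tested. Over all 18906 peaks in the 4 lists the median percentile was 73.8 and 64.0 for Gfi1 in tumors 39 and 41. For Lsd1 it was 72.6 and 74.6. Differences peak by peak were not computed there, so the contrast between the factors is not read as particular to these sites. Sites are not replicates, and these values describe the 4 lists.

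Lsd1 ranked the sites higher within its lists than Gfi1 did, as it also ranked the sites in genes. The mean over tumors of the median percentile was 58.7 ± 2.01 for Lsd1 and 50.6 ± 5.54 for Gfi1 (SD, n = 2 tumors), and the difference was 5.62 points in tumor 39 and 10.6 in tumor 41. Over all 18906 peaks in the 4 lists the medians were 73.8 (Gfi1) and 72.6 (Lsd1) in tumor 39, and 64.0 and 74.6 in tumor 41, so the higher rank of Lsd1 in tumor 41 was not particular to these sites. Lsd1 stood higher at 1029 sites (62.8%) in tumor 39 and at 1181 (72.1%) in tumor 41. It was higher in both tumors at 751 sites (45.8%), and Gfi1 was higher in both at 179 (10.9%). These shares were not computed for all 18906 peaks or for the sites in genes, so they are not read as particular to these sites. With 2 tumors for each factor the smallest two-sided p of an exact permutation test is 0.333, so no test was run. More than 1 Lsd1 peak met 53 sites in tumor 39 and 88 in tumor 41, and the highest was then taken. The lists also differ in length, and the part of both in this difference was not tested.

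The Lsd1 peaks over the sites were also wider. In tumor 39 the median width was 1512 bp in the Gfi1 list and 2120 bp in the Lsd1 list, and in tumor 41 it was 1480 and 1834 bp, with quartiles of 1106 and 2167 bp for the Gfi1 peaks of tumor 39 that define the sites. Lsd1 was the wider at 76.9% of sites in tumor 39 and at 69.7% in tumor 41. In tumor 39 the sites in genes had medians of 1529 bp (Gfi1) and 2344 bp (Lsd1). In tumor 41 they had 1600 and 2065 bp. Over all 18906 peaks the medians were 1968 and 2514 bp in tumor 39, and 1925 and 2371 bp in tumor 41. Wider Lsd1 peaks were thus not particular to these sites, and the shares were not computed for other peaks. At 365 sites (22.3%) the Lsd1 peak of tumor 39 spanned 2 or more Gfi1 peaks of the same tumor. The sites at a TSS were wider in each library, with medians of 2130, 2564, 2083 and 2478 bp for Gfi1 and Lsd1 in tumor 39 and Gfi1 and Lsd1 in tumor 41. A stretch covered in all 4 lists existed at 1633 of the 1638 sites, with a median length of 1107 bp and a median of 80.7% of the Gfi1 peak of tumor 39. At the 5 others no base was covered in all 4 lists, and the middle of the Gfi1 peak of tumor 39 was used for the sequence. The widest site, chr2:167752172-167772201 near Gm14321, was 20030 bp wide in Gfi1 replicate 1 and stood between 66.9 and 96.8 in the 4 lists. The next widest were the 11569 bp site chr1:86499954-86511522, 15204 bp from Ptma, and the 10756 bp site chr8:119803688-119814443, 8274 bp from Cotl1, with mean percentiles of 97.9 and 91.5.

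The sites lay between 5007 and 193749 bp from the nearest TSS, with a median of 14168 bp and quartiles of 8459 and 25792 bp. Of the 1638, 523 were less than 10 kb away, 996 between 10 and 50 kb, 99 between 50 and 100 kb and 20 farther. The farthest were chr18:30802639-30803447, chr2:138047463-138048232 at 170632 bp and chr13:104517679-104519226 at 165705 bp. The farthest of all, with mean percentile 23.2, consists of repeat sequence along 100% of its length. It is 1 of 25 sites (1.53%) that have a near-identical second copy on an assembled chromosome. Just inside the limit were sites at 5007, 5008 and 5010 bp with mean percentiles of 65.8, 56.3 and 10.1. The nearest intergenic peaks just outside it, at 4996, 4990 and 4984 bp, had 44.0, 26.5 and 41.1. The limit therefore cuts through like sites. The 3 lowest sites, near Tmem106c, 2010003K11Rik and 5430425K12Rik, had mean percentiles of 7.98, 10.1 and 10.9, and their scores in the 4 lists lay between 50.7 and 77.7, close to the lowest score of 50 in the lists.

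The nearest TSS was that of a protein-coding gene for 816 sites (49.8%), of a lincRNA gene for 310, of a processed pseudogene for 206 and of a miRNA gene for 42. The nearest TSS is an assignment by distance and names no target. A RefSeq transcript that GENCODE M21 does not carry at that place starts within 1 kb of 189 sites (11.5%), and the midpoint of 288 (17.6%) lies in a RefSeq transcript, of which 42 are in an mRNA. The median percentiles of the 189 sites were 63.3 and 68.2 in tumor 39 and 52.0 and 63.3 in tumor 41 for Gfi1 and Lsd1. Without these 189 sites the mean of the 4 medians was 53.8 in place of 54.6. Chromosome 2 held 171 sites, chromosome 4 held 159 and chromosome 11 held 149, while the X chromosome held 15 and the Y chromosome 1. The densest was chromosome 11 with 1.22 sites per Mb, and the X chromosome had 0.0877 per Mb. As a share of the peaks in all 4 lists on the same chromosome, chromosomes 12 and 13 had 12.5% and 12%, and chromosome 10 had 5.22%. The Y chromosome had 1 peak in all 4 lists, which is its 1 site.

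In base composition the sites stood close to distal sites in genes and far from promoters. In the central 500 bp the median GC content was 53.4% and the median ratio of observed to expected CpG was 0.310, against 53.2% and 0.272 in genes and 61.4% and 0.728 at a TSS. A window with at least 50% GC and a ratio of at least 0.6, as in a CpG island, was found at 166 sites (10.1%), at 4.35% of the sites in genes and at 64.5% of those at a TSS. Among the intergenic distal peaks missing from 1 or more lists the share was 17.1%. The 166 CpG-rich sites stood higher than the others for Gfi1, at 70.7 in tumor 39 and 55.1 in tumor 41, against 52.5 and 46.1 for the other 1472. For Lsd1 they stood at 66.5 and 66.2, against 59.5 and 56.5. Of the 40 sites with a tRNA gene, 12 were CpG-rich (30%), as were 38 (20.1%) of the 189 with a RefSeq start.

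**Figure D2:**
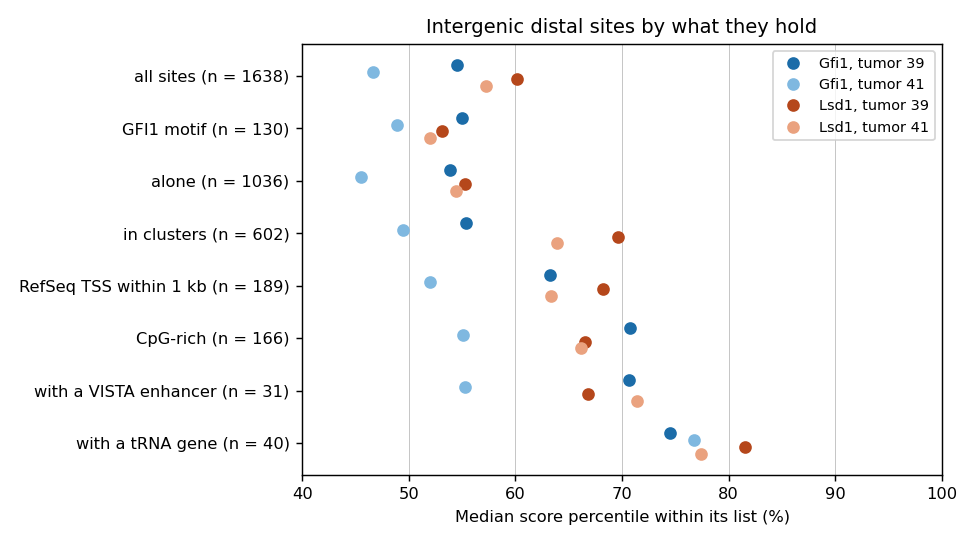
Median score percentile within its list (horizontal axis, percent) of groups of the 1638 intergenic distal sites that hold a named feature, 1 point per library. The groups overlap, and the axis starts at 40. Sites with a tRNA gene lie highest in each library, and in each of the other groups drawn the Gfi1 list of tumor 41 gives the lowest median.

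Elements of the VISTA collection, genome fragments that drove a reporter gene in mouse embryos, lay under 31 of the sites (1.89%). The share was 1.69% of the sites in genes, 0.134% of those at a TSS and 0.540% of all 18906 peaks in the 4 lists. These 31 elements are 5.00% of the 620 mouse elements in RefSeq. Activity in the embryonic hindbrain, from which the cerebellum forms, is annotated for 11 of the 31 (35.5%) and for 140 of the 620 (22.6%), and activity in the heart for 8 (25.8%) and 159 (25.6%). Activity anywhere in the brain or neural tube is annotated for 17 (54.8%) and 286 (46.1%). Of the 620 elements 227 are intergenic and distal. Shares of activity were not computed for these alone or for the sites in genes, so the hindbrain share is not read as particular to these sites. The hindbrain elements included mm1445 near Btg2, whose site chr1:134059757-134065054 stood at 85.7 and 87.8 in tumor 39 and at 76.0 and 84.9 in tumor 41 for Gfi1 and Lsd1. They also included mm1496, whose site chr11:94157077-94164858 near B230206L02Rik stood at 94.3 and 99.7 in tumor 39 and at 95.7 and 99.2 in tumor 41. The lowest of the 31, at mm3 near Traf3, stood at 56.4 and 4.74 in tumor 39 and at 12.4 and 40.3 in tumor 41. The 31 sites ranged from a mean percentile of 28.5 to 98.4. Whether an element is active in MG tumors was not measured.

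Motif letters were counted in the central 200 bp of the stretch shared by the 4 lists. The GFI1 letters were found at 130 sites (7.94%, 95% exact binomial interval 6.67% to 9.35%), at 5.63% of sites in genes (4.72% to 6.66%), at 6.56% at a TSS (6.13% to 7.00%) and at 7.00% of all 36836 Gfi1 peaks of replicate 1 in the window about their middle. The interval of the sites overlaps that of the sites at a TSS and holds the share of all peaks, and its lower end lies just above the upper end of the interval of the sites in genes. The 130 sites with the letters had median percentiles of 55.01 and 48.9 for Gfi1 in tumors 39 and 41, and the 1508 without them had 54.4 and 46.6. The highest of the 130 was the site near Atf7ip whose window is printed above. When the whole Gfi1 peak was searched in place of its center, 51.6% of the sites held the letters. A whole peak is longer than the window, and longer sequence holds short letters more often. The share in whole peaks was not computed for other peaks, so it is not read as a result about these sites.

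Letters of other factors were counted in the same windows. Peaks missing from 1 or more lists have no shared stretch, and their window lay about the middle of the Gfi1 peak of replicate 1. TGANTCA, the core bound by AP-1 (Fos and Jun proteins), was found at 7.57% of the sites (6.34% to 8.96%), at 5.45% in genes (4.55% to 6.47%) and at 3.07% at a TSS (2.77% to 3.38%). At sites 1 to 5 kb from a TSS it was 6.41% (5.45% to 7.49%). Among the intergenic distal peaks missing from 1 or more lists it was 4.44% (3.77% to 5.18%). CANNTG, the E-box read by many helix-loop-helix proteins, was found at 67.3% of the sites, 71.2% in genes, 50.4% at a TSS and 68.6% of the intergenic distal peaks missing from 1 or more lists, so that all the distal kinds lay above the sites at a TSS. CACGTG, the E-box form that Myc prefers and a special case of CANNTG, was found at 5.49%, 5.72% in genes and 5.39% at a TSS. CCGGAAGT, read by ETS factors, was found at 0.672%, 0.665% in genes and 3.04% at a TSS, and TGACGTCA, read by CREB, at 0.549%, 0.488% and 1.02% in the same order. A core of the CTCF motif was found at 9.16% of the sites, 6.56% in genes, 8.11% at a TSS and 13.3% of the intergenic distal peaks missing from 1 or more lists. The palindrome read by NFI factors was found at 1 site. A match of letters is a description of the sequence and shows no binding.

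**Figure D3:**
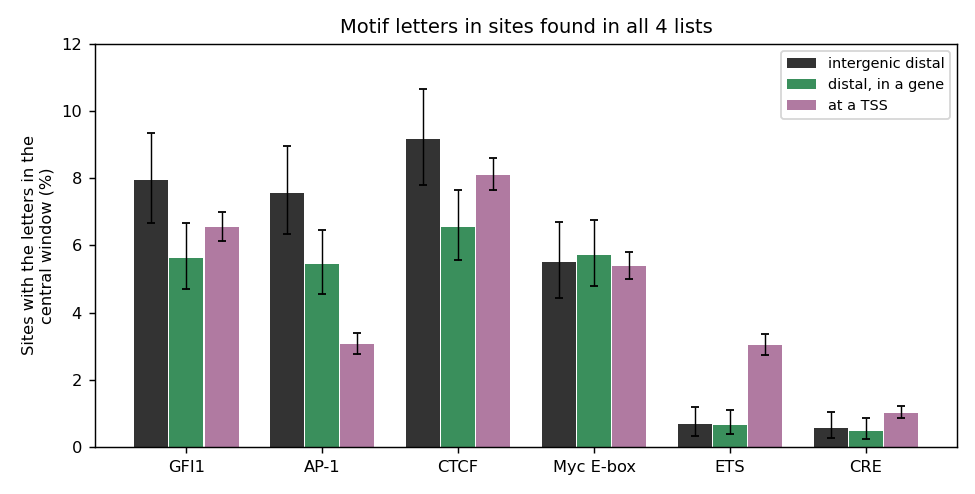
Share of sites whose central 200 bp hold the letters of a motif on either strand (vertical axis, percent), for intergenic distal sites, distal sites in genes and sites at a TSS, all found in the 4 lists. Error bars are 95% exact binomial intervals and cover counting error only. AP-1 letters are most frequent at intergenic distal sites and ETS letters at sites at a TSS.

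Many of the sites lay close to each other. When sites with gaps of at most 12.5 kb were joined, 602 (36.8%) fell into 236 clusters, 78 of which had 3 or more sites. The clustered sites had median percentiles of 69.6 and 63.9 for Lsd1 in tumors 39 and 41, against 55.2 and 54.4 for the 1036 sites alone, and of 55.3 and 49.5 for Gfi1, against 53.9 and 45.5. The difference between clustered and single sites was thus larger for Lsd1 in both tumors. Lsd1 peaks that span several Gfi1 peaks lend 1 score to several sites, which counts a wide peak more than once.

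The cluster with the most sites held 8, in the 40237 bp of chr4:106827320-106867556, around the noncoding gene Gm12746 and between Acot11 and Ssbp3. Its strongest site, chr4:106837281-106842522, stood at 93.9 and 98.2 in tumor 39 and at 89.0 and 99.9 in tumor 41 for Gfi1 and Lsd1. The center of this site is CpG-rich, and a RefSeq noncoding transcript starts in the peak or within 1 kb of its edges. The weakest, chr4:106864109-106866107, stood at 49.4 and 47.7 in tumor 39 and at 41.4 and 4.11 in tumor 41. The other 6 had mean percentiles of 84.5, 68.0, 60.2, 52.5, 43.4 and 38.5. The site chr4:106858041-106858993 shows how peaks were split. Its Gfi1 percentile was 16.2 in tumor 39 and 79.3 in tumor 41, where the same peak also covers the site before it. Clusters of 7 sites lay near Socs3, a feedback inhibitor of cytokine signalling, over 30037 bp, and near Irf2bp2 and Tarbp1 over 35460 bp. By nearest protein-coding TSS the genes with the most sites were Ptpn1 and Sulf2 with 10 each, Sik1 with 8, and Lrrc74a, Slc6a6, Socs3 and Tmem189 with 7. These clusters and genes other than the first cluster were picked after their values were seen.

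The 1638 sites had 1106 different nearest protein-coding genes, which is 5.04% of 21924 protein-coding genes. Of the 11660 genes with a peak of all 4 lists at a TSS, 7.26% were also the nearest gene of a distal intergenic site, against 2.53% of the 10264 others. Lists of genes fit for this tumor were read against these shares, with no test, since the lists were drawn up with earlier results known. Of 285 genes in 8 lists, 48 (16.8%) were nearest to 1 or more sites. Distances and gene density differ between lists, and their part in these shares was not tested.

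Immediate early genes, which are induced within minutes of a growth signal, and Myc had the highest share, 10 of 24 (41.7%), with 18 sites. All 24 also had a peak of the 4 lists at a TSS. The strongest site lay 6848 bp from Nr4a1, an orphan nuclear receptor gene, at chr15:101245239-101247421, with 95.9 and 97.5 in tumor 39 and 97.1 and 94.9 in tumor 41 for Gfi1 and Lsd1. The neighbouring site at 5614 bp stood at 35.3 for Gfi1 in tumor 39, and in the other 3 lists a single peak covers both sites and gives each its score. The third Nr4a1 site, at 11227 bp, had a mean percentile of 85.5. Fos, which encodes a subunit of AP-1, was nearest to 4 sites. The site 10303 bp away, chr12:85485214-85488248, stood at 93.0 and 94.5 in tumor 39 and at 88.2 and 93.1 in tumor 41, and the site 17178 bp away, which covers the heart enhancer mm260, stood at 84.9 and 96.6 in tumor 39 and at 95.7 and 89.8 in tumor 41. The other 2 Fos sites were low, with mean percentiles of 42.4 and 33.9. The site of Fosb, 8926 bp away, covers the heart enhancer mm567 and stood between 75.5 and 90.5 in the 4 lists. The sites of Btg2, Egr1 and Nr4a2 had mean percentiles of 83.6, 66.4 and 60.2, those of Jund 68.3 and 66.4, those of Ier3 73.4 and 42.7, those of Klf4 56.8 and 39.7, and that of Ier2 31.7. The Jund sites shared their Lsd1 percentiles, 83.4 in tumor 39 and 85.0 in tumor 41, so their means are not independent. All 18 are named here, beyond the 3 nearest that the rule for sites gives, and this was decided after their values were seen.

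**Figure D4:**
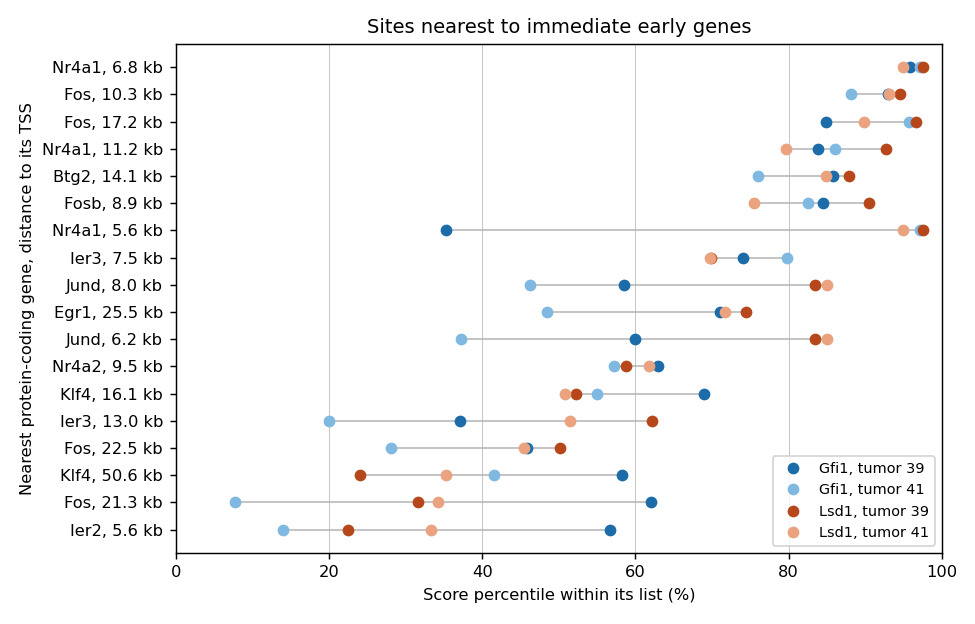
Score percentile within its list (horizontal axis, percent) of the 18 intergenic distal sites whose nearest protein-coding TSS is that of an immediate early gene, with the distance to that TSS in kb on the vertical axis. Each point is 1 library and the grey line joins the lowest and highest. Sites of Nr4a1, Fos, Btg2 and Fosb lie highest, and the site 5.6 kb from Nr4a1 has 1 low value, Gfi1 in tumor 39.

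Of the transcription factors of neural cells, 14 of 79 (17.7%) were nearest to 21 sites. Id3, which encodes an inhibitor of helix-loop-helix proteins, was nearest to 6 sites, more than any other listed gene. The 2 nearest to it, at 5259 and 6770 bp, stood at 40.4 and 43.7 and at 36.7 and 51.5 in tumor 39 for Gfi1 and Lsd1, and at 39.4 and 56.3 and at 39.4 and 22.4 in tumor 41. The 6770 bp site carries the GFI1 letters in the window printed above. The site 6586 bp from Otx1, a homeobox gene of the developing brain, is CpG-rich and stood at 76.9 and 32.6 in tumor 39 and at 39.95 and 57.3 in tumor 41, so that tumor and factor gave different orders. Hes5, a Notch target, had 1 site at 10724 bp with mean percentile 79.0, and Nfix, a nuclear factor I gene, had 2, of which the higher had 80.5.

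Of the genes of Sonic hedgehog, Notch and BMP signalling, which set the growth of cerebellar precursors, 7 of 33 (21.2%) were nearest to 13 sites. The nearest sites of Smad5 at 18898 bp, Smad3 at 21749 bp and Smad7 at 23720 bp had mean percentiles of 44.4, 38.2 and 73.4. The Smad7 site stood at 80.2 and 72.1 in tumor 39 and at 64.6 and 76.5 in tumor 41 for Gfi1 and Lsd1. Bmp7 had 4 sites, the nearest at 100320 bp, and Gli2 had 2, the nearest at 135597 bp.

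Among cell cycle genes of the G1 phase, 4 of 25 (16.0%) had 1 site each. That of Ccne1, the gene of cyclin E1, lies at chr7:38083962-38086733, 12636 bp from the TSS, and its CpG-rich window is printed above. It stood at 92.2 and 91.6 in tumor 39 and at 84.7 and 90.4 in tumor 41 for Gfi1 and Lsd1. The sites of E2f1 at 13713 bp, E2f2 at 11269 bp and Ccnd1 at 89525 bp had mean percentiles of 58.9, 35.3 and 49.1.

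Of the 76 cytosolic ribosomal protein genes 10 (13.2%) were nearest to 12 sites, although all 76 had a peak of the 4 lists at a TSS. The nearest, those of Rps10 at 5655 bp, Rpl12 at 7044 bp and Rps24 at 7748 bp, had mean percentiles of 32.4, 81.9 and 64.9. Of the 32 axon guidance genes 3 (9.38%) had 1 site each, near Plxnb1 at 15852 bp, Epha4 at 274478 bp and Robo1 at 278731 bp, with mean percentiles of 35.1, 40.3 and 74.1. These distances are to GENCODE TSSs. In RefSeq an mRNA of Robo1 starts within 1 kb of the Robo1 site, and a noncoding transcript within 1 kb of the Plxnb1 site. None of the 14 genes of Gfi1, Lsd1 and the CoREST complex and none of the 14 genes that the study names as downregulated or tests was the nearest protein-coding gene of a site, although 13 and 7 of them had a peak of the 4 lists at a TSS. With 14 genes and a share of 5.04% over all genes, a count of 0 says little.

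**Figure D5:**
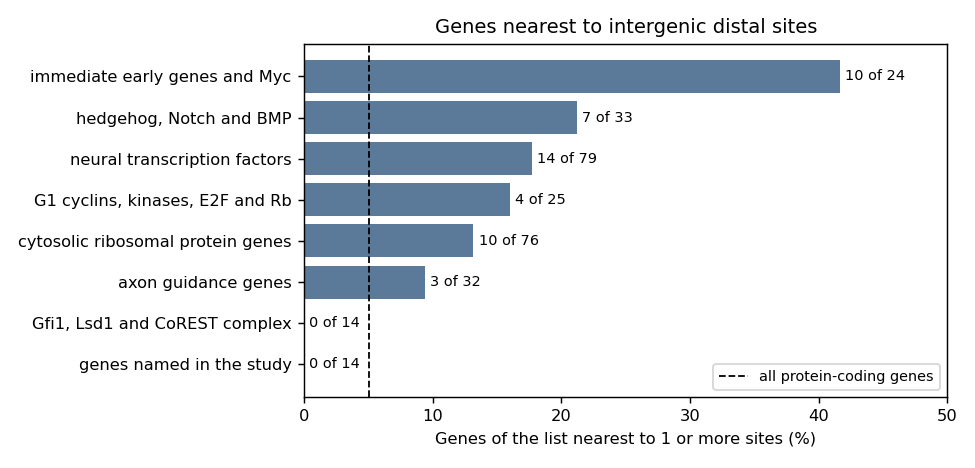
Share of the genes of each list that are the nearest protein-coding gene of 1 or more intergenic distal sites (horizontal axis, percent), with the count beside each bar. The dashed line is the share over all 21924 protein-coding genes, 5.04%, and 6 of the 8 lists lie above it, with immediate early genes at 41.7%.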

How the data were processed

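Gfi1 and Lsd1 were mapped by ChIP-seq in MG tumors 39 and 41, with 1 library per factor and tumor, and groups were taken from the sample labels. The authors aligned reads to mm10 with BWA (version 0.6.2 in the submitters' processing notes), merged runs with Picard, removed duplicates and called peaks in each library with MACS against input. The deposited lists give each peak with a score whose definition is not given in the sources used here, so scores were turned into percentiles within their own list, with tied peaks sharing a percentile. The study states mapped reads per library, which were not used here, and the lists hold no read counts, so the reads behind each peak are not known. The annotation was GENCODE M21 (the authors used M9), and tRNA genes, VISTA elements, other transcript starts and sequence came from RefSeq GRCm38.p6. Where a site met several peaks of a list, the one with the highest score was used.

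Sites, features and motif letters were computed with scipy 1.17.1, numpy 2.4.6 and the sequence reader pysam 0.24.0 under Python 3.11.15, and second copies were searched with minimap2 2.31-r1302 at 50% of the length and 95% identity. Motifs were searched on both strands. The assignment of sites was checked on simulated data. No test was run, since the calls that chose the sites also carry the scores and 2 tumors per factor allow no small p. Exact binomial intervals cover counting error only. Sites named are the 10 highest and 3 lowest by mean percentile, the 3 farthest from a TSS, the 3 widest, the 3 just inside and outside 5 kb, the sites of the largest cluster and up to 3 nearest sites per gene list. One of the 10 highest is not reported here. Other sites named were chosen after their values were seen. The members and lists were chosen with earlier results of these data known. Alternatives changed the distance, the overlap, the annotation, the list used as base, the score, the windows and the cluster gap, and left out each library.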

Additional observations from a re-analysis of the deposited data

Results flagged for a closer look

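The difference between Lsd1 and Gfi1 in percentile had opposite signs in the 2 tumors for 7 of 26 groups of sites or single sites compared, and none of these differences between tumors was tested. At the sites with a VISTA enhancer, Lsd1 minus Gfi1 was -3.80 points in tumor 39 and 16.1 in tumor 41. At the CpG-rich sites it was -4.24 and 11.03, at the sites with the CTCF letters -1.63 and 11.1, and at those with the GFI1 letters -1.92 and 3.09. Over all sites it was 5.62 and 10.6. Of the 10 highest sites, 3 had opposite signs. The highest, with 4 tRNA genes, had 1.11 in tumor 39 and -0.773 in tumor 41, the second, with 3 histidine tRNA genes, had 0.919 and -0.654, and the seventh, at the enhancer mm1295 near Irf2bp2, had 4.72 and -0.709. At all 3 sites the Lsd1 peak of tumor 41 has the score 3100, which 419 peaks of that list share. At the first 2 of these sites the Gfi1 peak of tumor 39 also has the score 3100, which 805 peaks of its list share. Tied peaks share a percentile. The part of these ties in the signs was not tested, and no difference between the tumors is read from them.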

How the results depend on the processing

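Both factors were mapped in the same 2 tumors, so the libraries are paired by tumor. Differences between factors are given within each tumor, and no paired test was run. Of 136 alternative values of 10 results, 98 stayed within the limits set for them and 38 moved, and the cause was not tested unless the setting names it. With protein-coding genes alone as annotation, there were 2708 sites, 14.3% of the peaks in all lists, with 5.69% in the upper 20% of every list, a median width of 1557.5 bp, 14.4% CpG-rich, 43.7% in clusters and, by construction, 100% nearest to a protein-coding gene. With the upper 50% of each list by score there were 512 sites, 4.65% of the peaks in all lists, with a mean of medians of 72.7, 11.7% in the upper 20% of every list, a width of 2193 bp, 17.0% CpG-rich and 24.0% in clusters. At 2 kb from a TSS the share of peaks in all lists was 11.5%. At 10 kb it was 5.90%, with 2.601% in the upper 20% and a width of 1479 bp. With 50% of the peak covered, the width was 1466.5 bp and 32.4% lay in clusters. With the whole peak outside genes the width was 1487 bp. With Lsd1 replicate 1 as the base, the width was 1944.5 bp and 28.7% lay in clusters. The GFI1 letters were found at 18.01% in 500 bp and at 51.6% in the whole peak, and these shares were not computed for other peaks. CpG-rich windows made up 12.2% in 200 bp and 5.98% with stricter limits. With a cluster gap of 50 kb, 51.5% lay in clusters. Leaving out sites near a RefSeq start, an alternative added after seeing the data along with those without tRNA sites and without second copies, gave 7.66% and 1471 bp.

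Leaving out 1 library at a time gave 1740 to 2284 sites, 8.86% to 9.82% of the peaks found in all remaining lists, a width of 1374 to 1459 bp, 8.33% to 10.3% CpG-rich and 36.7% to 44.1% in clusters. The reads behind each peak are not known, no control tumor was analysed here, and scores of different lists are comparable only as ranks.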
